A study of Mus musculus with 52 samples.

Results

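The 45 mouse genes described here encode subunits of the receptors for glutamate and GABA, the main excitatory and inhibitory transmitters of the brain. They were chosen by a rule on gene symbols, set with earlier results of these data known. All were present in each of 4 expression tables of 55487, 55487, 34042 and 53700 genes. By role, 16 encode ionotropic glutamate receptor subunits (4 AMPA, 7 NMDA and 5 kainate), 8 are metabotropic glutamate receptors, 19 encode GABA-A receptor subunits and 2 GABA-B receptor subunits.

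The 52 RNA-sequencing libraries, all labelled C57BL/6, comprised 25 of brain and 27 of astrocytes in culture. The second KA cohort held brain of Apoe knockout mice given KA (3 libraries), brain labelled A2aR knockdown and given KA (3), brain given KA (4) and untreated brain (3). The first KA cohort held KA (3) and untreated (3) libraries, and the set from a CNO-induced epileptic model held CNO (3) and untreated (3) libraries. Astrocytes formed 9 groups of 3 libraries: Apoe knockout cells with neuronal medium, with oleic acid, with palmitic acid and untreated, and wild-type cells with medium of Apoe knockout neurons, with neuronal medium, with oleic acid, with palmitic acid and untreated. Apoe encodes apolipoprotein E, a lipid carrier secreted by astrocytes, and the A2aR gene is Adora2a, an adenosine receptor. The labels do not spell out KA or CNO and give no brain region, dose, time, sex or age, nor how the knockdown was made or which cells respond to CNO. Titles of all 3 medium groups carry KA, and those of untreated knockout 3 and palmitic acid knockout 3 the word mix, neither explained. Nothing states that replicates come from different animals or cultures, and p-values therefore measure only the spread of these libraries, which may be technical.

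AMPA, NMDA and kainate receptors are tetrameric cation channels. AMPA receptors carry fast excitation and are built from the products of Gria1 to Gria4, of which the edited Gria2 product makes the channel nearly impermeable to calcium. NMDA receptors need the Grin1 subunit, and kainate receptors combine Grik1 to Grik3 products with those of Grik4 and Grik5. GABA-A receptors are pentameric chloride channels, most often of alpha, beta and gamma subunits, and GABA-B receptors are pairs of the Gabbr1 and Gabbr2 products that signal through G proteins. Astrocytes are known to respond to both transmitters.

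Library totals of the second cohort were 68760648 to 76643829 counts. The other tables give only TPM, a level scaled for gene length and library size, and their depth is unknown. In the first cohort untreated 3 stood apart, with 9.01% of TPM in mitochondrial genes against 13.1 to 16.4% in the other 5 libraries. In the second cohort Xist was at 0.3101 TPM or less in every library given KA and at 122 TPM or more in every untreated one, and the Y-linked Ddx3y at 20.3 TPM or more in those given KA and 0.404 TPM or less in untreated ones, so that effects of KA and of sex cannot be told apart against its untreated brain. Xist and Ddx3y were read in the second cohort only, and the sex of the other libraries was not examined. The palmitic acid knockout astrocytes stood apart from the other astrocyte libraries, with 12057 to 12915 genes at 1 TPM or more against 13721 to 14652. Apoe was at 5.36 to 118 TPM in knockout and 2221 to 5024 TPM in wild-type astrocytes, and at 58.6, 29.7 and 31.2 TPM in Apoe knockout brain with KA against 926, 829.7, 1383 and 1467 TPM in KA brain. Adora2a overlapped between groups, at 1.75, 2.15 and 1.89 TPM in the libraries labelled A2aR knockdown and 1.95, 2.901, 1.32 and 2.26 TPM in KA brain.

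In untreated brain of the second cohort the most abundant receptor transcripts per unit length were Gabbr1, at 463 ± 67.1 TPM (SD, n = 3), Gria1 at 411 ± 9.46 TPM, Grin1 at 265 ± 7.49 TPM and Gria2 at 218 ± 28.4 TPM. Gabra5 stood at 149.6 ± 15.4 TPM and Gabbr2 at 131 ± 16.6 TPM. At the other end, Gabra6, known from cerebellar granule cells, averaged 0.0926 TPM and Gabrp 0.0192 TPM, while Grm6, known from the retina, and Gabrr3, a rho subunit gene, had no counts in these 3 libraries. Of the 45 genes, 37 averaged 1 TPM or more over the second cohort, 36 over the first and 37 over the CNO set.

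In cultured astrocytes 13 of the 45 genes averaged 1 TPM or more. The tables were normalized separately, so only the order within each is set side by side. In untreated wild-type astrocytes Gria3 led, at 75.1 ± 8.803 TPM, ahead of Grik5 at 42.2 ± 1.32 TPM, Gabbr1 at 34.2 ± 3.35 TPM and Gria2 at 19.2 ± 2.58 TPM. Gria1, at 8.51 ± 0.884 TPM, and Gria4, at 8.44 ± 0.382 TPM, did not differ beyond their spread, and Gabrb1 stood at 6.94 ± 0.7504 TPM and Gabra4 at 4.897 ± 0.416 TPM. Partner subunits were close to 0, with Gabbr2 at 0.26 ± 0.01 TPM and Grin1 at 0.83 ± 0.113 TPM. Gria3 made 67.5 ± 1.59% of the summed TPM of the 4 Gria genes in these cells, and Gria1 made 52.6 ± 0.952% in untreated brain of the second cohort.

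Promoter sequences of Gria2, Gria4 and Gabra4 are shown because these genes, on different chromosomes, were lower together in several of the astrocyte comparisons that follow. Each is sequence upstream of the RefSeq gene start on GRCm38.p6, 5′ to 3′ on the gene's own strand, the minus strand for all 3. Capitals mark the GC box, searched as GGGCGG on both strands.

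Gria2, chr3:80802836-80803085: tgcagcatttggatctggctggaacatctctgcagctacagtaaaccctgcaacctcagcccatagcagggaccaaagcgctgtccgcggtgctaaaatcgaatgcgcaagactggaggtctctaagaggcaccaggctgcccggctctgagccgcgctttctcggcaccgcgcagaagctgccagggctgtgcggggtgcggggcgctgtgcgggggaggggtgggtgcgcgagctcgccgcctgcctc

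Gria4, chr9:4796235-4796484: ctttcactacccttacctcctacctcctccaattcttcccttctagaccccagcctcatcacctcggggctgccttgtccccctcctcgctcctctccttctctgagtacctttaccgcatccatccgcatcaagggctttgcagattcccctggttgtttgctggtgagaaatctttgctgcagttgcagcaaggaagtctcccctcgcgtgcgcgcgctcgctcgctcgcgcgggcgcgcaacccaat

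Gabra4, chr5:71658364-71658558: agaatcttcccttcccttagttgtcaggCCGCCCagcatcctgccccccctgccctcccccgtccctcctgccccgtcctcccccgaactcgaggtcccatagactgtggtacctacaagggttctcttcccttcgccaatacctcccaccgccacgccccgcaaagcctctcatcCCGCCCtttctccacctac

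The Gria2 window of 250 bases was 64.8% G+C with 19 CpG dinucleotides and the Gria4 window 58.8% with 16, against medians of 52.4% and 6 over 32851 RefSeq windows of that length. The Gabra4 stretch ends at 195 bases, before annotated exon bases, so the bases nearest the gene start are not printed. It lies within the bounds of the neighbouring gene Gabrb1. The bases printed held 2 GC boxes and 10 CpG, and motif results for Gabra4 cover these only. A GC box was in 32.7% of all windows. Of the 32 receptor genes with a RefSeq entry, 17 (53.1%) had it in any of their windows. That share counts genes and not windows, so the 2 shares are not like measures. TGACGTCA (in 1.55% of all windows), TGANTCA (6.75%) and TATAAA (12.4%) were in none of the 3 stretches on either strand. Gabra4 (chromosome 5, 71569749 to 71658308, minus strand) and Gabrb1 (chromosome 5, 71658113 to 72149037, plus strand) are head-to-head neighbours that share exon bases in the GENCODE M21 annotation of mm10. No strand setting of the counting is stated, so reads from the shared bases cannot be assigned to one of them. Grin1, Grin2b, Grin2c, Grin2d, Grin3b, Grm2, Grm6, Grm7, Gabra5 and Gabrr3 likewise share exon bases with an antisense gene. Gria2, Gria3, Gria4, Grik4 and Grm8 share exon bases with a gene on the same strand. In that annotation Gria1 lies on chromosome 11 (57011387 to 57330244, plus strand), Gria2 on chromosome 3 (80681450 to 80802835, minus strand), Gria3 on chromosome X (41400854 to 41678601, plus strand) and Gria4 on chromosome 9 (4417896 to 4796234, minus strand).

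Untreated Apoe knockout astrocytes had more Gria1 and less Gria2 and Gria4 RNA than untreated wild-type astrocytes. Gria1 stood at 32.99, 30.8 and 30.95 TPM in knockout against 8.13, 7.88 and 9.52 TPM in wild-type libraries, with every knockout library above every wild-type one (log2 fold change 1.78 ± 0.11, limma adjusted p = 8.71e-12, on the log2(TPM + 1) scale used for all TPM tables). Gria2 stood at 3.08, 2.96 and 2.59 TPM in knockout against 21.1, 16.3 and 20.1 TPM in wild-type libraries, with no overlap in the other direction (log2 fold change -2.37 ± 0.17, limma adjusted p = 1.71e-10). The error after ± is the SE for a fold change and the SD over 3 libraries for a mean. Gria4 was lower, at 3.11 ± 0.161 TPM in knockout and 8.44 ± 0.382 TPM in wild type (log2 fold change -1.20 ± 0.14, limma adjusted p = 3.12e-07). Gria3, at 50.7 ± 1.699 TPM in knockout and 75.1 ± 8.803 TPM in wild type, did not pass the test although its libraries did not overlap (limma adjusted p = 0.0526). As a share of the summed Gria TPM, Gria1 made 35.8 ± 0.507% in knockout and 7.698 ± 0.971% in wild type, and Gria2 3.26 ± 0.277% in knockout and 17.2 ± 0.835% in wild type. The sum itself was 88.3 ± 2.91 TPM in knockout and 111 ± 11.6 TPM in wild type.

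Most of the GABA-A subunit transcripts that passed the test were lower in the knockout. Gabra4, an alpha subunit known from receptors outside the synapse, stood at 0.29, 0.29 and 0.34 TPM in knockout against 4.86, 5.33 and 4.5 TPM in wild-type libraries (log2 fold change -2.17 ± 0.10, limma adjusted p = 7.76e-14). Its neighbour Gabrb1, a beta subunit gene, stood at 0.76, 0.55 and 1.29 TPM in knockout against 6.38, 6.64 and 7.79 TPM in wild-type libraries (log2 fold change -2.10 ± 0.23, limma adjusted p = 1.09e-07). Neither gene's groups came near to overlapping. Gabre, the epsilon subunit, was higher in the knockout, at 2.43 ± 0.329 against 0.687 ± 0.355 TPM in wild type (log2 fold change 1.04 ± 0.18, limma adjusted p = 5.94e-05). Only in knockout groups did all libraries of a group reach 1 TPM of Gabre. It was thus tested through the genotype where it was then higher, and its value is a description. Gabrb2, at 1.83 ± 0.401 in knockout and 2.08 ± 0.367 TPM in wild type, and Gabbr1, at 34.3 ± 4.86 in knockout and 34.2 ± 3.35 TPM in wild type, did not pass.

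Other calls were of genes at low levels. The NMDA subunit genes Grin2d and Grin3a were higher in the knockout (log2 0.72 and 0.49). The kainate subunit genes Grik2 (-1.09) and Grik4 (-0.58), the metabotropic receptors Grm3 (-0.93) and Grm8 (-0.76) and Grin1 (-0.51) were lower. In all, 4 of the 18 receptor genes tested passed as higher and 10 as lower, where 44.9% of the 16161 genes tested passed (23.9% higher and 21.1% lower). The median log2 fold change was -0.56 over the receptor genes and 0.05 over all genes tested. The 18 reached 1 TPM in 3 or more of the 27 libraries, and the other 27 genes were not tested. Grin1, Grm3 and Grm8 reached 1 TPM in all libraries of at most 1 group, so their changes rest on low levels, and Grm3 reached it only in wild-type libraries untreated or with neuronal medium, so that it was tested through groups where it was high. Grin2d reached 1 TPM in all libraries of a group only in knockout groups, and Grik2 only in wild-type groups. Both were tested through the genotype where they were higher, so their values here are descriptions. The receptor median was -1.19 at a pseudocount of 0.1 and -0.12 with no filter on low values.

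Cell markers differed between the same groups. The summed TPM of 10 astrocyte markers was 530 to 542.6 in knockout and 2269 to 2535 in wild-type libraries, and 9 of the 9 tested were lower, with Gfap, an astrocyte filament protein, at 70.8 ± 0.648 TPM in knockout and 1169.7 ± 77.97 TPM in wild type. Gjb6, the marker not tested, was at 0.42 TPM or less in every astrocyte library. Olig1, an oligodendrocyte lineage factor, was at 58.1 ± 0.379 TPM in knockout and 305 ± 7.99 TPM in wild type, and 6 oligodendrocyte precursor markers summed to 81.46 to 83.65 TPM in knockout and 382.95 to 397.1 TPM in wild type. The 10 microglia markers summed to 291.8 to 321.7 TPM in knockout and 346.3 to 392.6 TPM in wild type. The 10 neuron markers summed to 294.3 to 307.04 TPM in knockout and 428.7 to 469.2 TPM in wild type, of which Stmn2 made 218 ± 2.76 TPM in knockout and 319 ± 15.4 TPM in wild type. The part of these markers in the receptor differences was not tested, and in bulk RNA fewer cells of a type and less RNA per cell cannot be told apart.

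**Figure D1:**
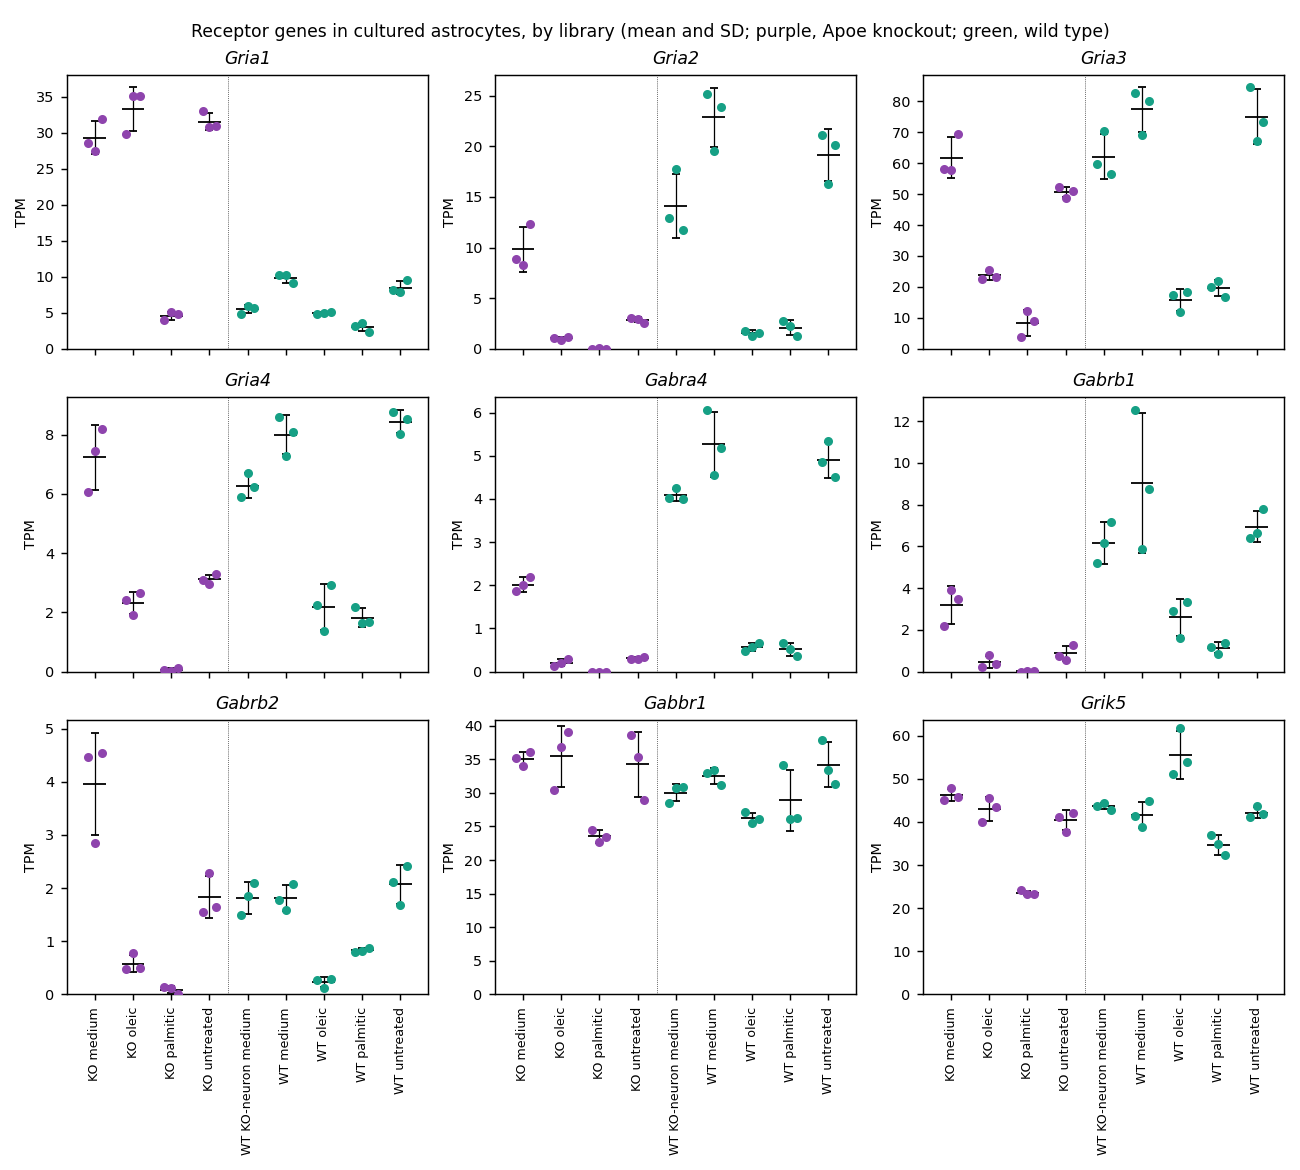
Levels of 9 receptor genes (TPM, linear axes from 0) in each of the 27 astrocyte libraries by group, with the mean and SD of each group, Apoe knockout (KO) in purple and wild type (WT) in green. Gria1 lies between 27.5 and 35.1 TPM in the knockout libraries without palmitic acid and at 10.2 TPM or less in all wild-type libraries.

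In knockout astrocytes, neuronal medium was followed by higher levels of most of these genes. Gria2 stood at 8.87, 8.23 and 12.3 TPM with the medium against 3.08, 2.96 and 2.59 TPM in untreated knockout libraries (log2 fold change 1.46 ± 0.17, limma adjusted p = 7.18e-07). Gabra4 stood at 1.86, 2 and 2.19 TPM with the medium against 0.29, 0.29 and 0.34 TPM untreated (log2 fold change 1.21 ± 0.10, limma adjusted p = 4.04e-09). For both, all libraries with medium lay above all untreated ones. Gabrb1 rose to 3.21 ± 0.906 TPM with the medium, against 0.867 ± 0.381 TPM untreated (log2 1.17), and Gria4 to 7.23 ± 1.09 TPM with the medium against 3.11 ± 0.161 TPM untreated (0.99). Gabrb2 (0.80), Grik4 (0.80), Grm8 (0.77), Grm3 (0.70), Grik2 (0.62) and Grik5 (0.19) were higher as well, and Grin2d was lower (-0.42). Gria1 did not pass the test, at 29.3 ± 2.31 TPM with the medium and 31.6 ± 1.24 TPM untreated. Of 18 receptor genes 11 were higher and 1 lower, where 31.2% of the 16161 genes tested passed (18.7% higher and 12.6% lower). The medians were 0.66 over the receptor genes and 0.00 over all genes tested. All 9 astrocyte markers tested were higher, at summed TPM of 1294 to 1398 with the medium and 530 to 542.6 untreated, and 6 of 10 microglia markers were lower. Oligodendrocyte precursor markers summed to 253.1 to 262.5 TPM with the medium and 81.46 to 83.65 TPM untreated (2 higher and 1 lower of 4 tested), and neuron markers to 408.8 to 433.4 TPM with the medium and 294.3 to 307.04 TPM untreated (2 higher and 2 lower of 7 tested). The part of these markers in the receptor changes was not tested.

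In wild-type astrocytes the same medium was followed by no receptor call. Gria1 stood at 9.82 ± 0.632 TPM with the medium and 8.51 ± 0.884 TPM untreated (limma adjusted p = 0.8498), and Gria2 at 22.8 ± 2.95 TPM with the medium and 19.2 ± 2.58 TPM untreated (limma adjusted p = 0.947). Of 18 receptor genes 0 were called by limma, where limma called 0.0371% of the 16161 genes tested, 0 had an unadjusted p under 0.05, against 6.38% of all genes, and the groups of 0 did not overlap (0 higher and 0 lower), against 14.9% of all genes. The change with neuronal medium differed between the genotypes for 8 receptor genes by limma's interaction test, all with the more positive change in the knockout, where 18.5% of the 16161 genes tested passed (11.6% higher and 6.95% lower). Among them were Gria2 (log2 difference 1.22), Gabra4 (1.12), Gria4 (1.06), Grik4 (0.95), Gabrb2 (0.92), Grm8 (0.71) and Grm3 (0.58). Grm3 passed the filter only through wild-type libraries untreated or with neuronal medium, so its value is a description.

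Medium of Apoe knockout neurons was followed by lower Gria1 in wild-type astrocytes. Gria1 stood at 4.85, 5.92 and 5.62 TPM with that medium, against 10.2, 10.2 and 9.09 TPM with neuronal medium and 8.13, 7.88 and 9.52 TPM untreated. The 3 libraries with medium of knockout neurons were below all 6 others (log2 fold change -0.75 ± 0.11, limma adjusted p = 0.000485, against neuronal medium, and log2 fold change -0.56 ± 0.11, limma adjusted p = 0.00759, against untreated). Grm3, a metabotropic receptor known from astrocytes, stood at 0.33, 0.3 and 0.45 TPM with medium of knockout neurons, against 1.5, 1.09 and 0.84 TPM with neuronal medium and 0.63, 1.26 and 1.03 TPM untreated (log2 -0.65, limma adjusted p = 0.00782, and -0.53, limma adjusted p = 0.0325). Grm3 reached 1 TPM in 4 of the 27 libraries, all of them wild-type libraries untreated or with neuronal medium, and so was tested only through the groups against which it was then lower. Its values are given as a description. Gria2, at 14.1 ± 3.16 TPM with medium of knockout neurons and 22.8 ± 2.95 TPM with neuronal medium, did not pass (limma adjusted p = 0.0585). Gria1 and Grm3 were the 2 calls among 18 receptor genes in both comparisons, which share the libraries with medium of knockout neurons, where 1.42% of all genes passed against neuronal medium (0.965% higher and 0.452% lower) and 1.5% against untreated (0.971% and 0.532%). Fitted on only the groups compared, 0 were called against untreated and 1 against neuronal medium. Against untreated, 0 were called without untreated 3 or without knockout medium 1, and 1 without untreated 2, knockout medium 2 or knockout medium 3. Against neuronal medium, 1 was called without neuronal medium 1.

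Oleic acid, an unsaturated fatty acid, was followed in wild-type astrocytes by lower AMPA and GABA-A subunit RNA. Gria2 stood at 1.78, 1.27 and 1.6 TPM with oleic acid against 21.1, 16.3 and 20.1 TPM untreated (log2 fold change -2.98 ± 0.17, limma adjusted p = 6.06e-12). Gria3 stood at 17.2, 11.9 and 18.4 TPM with oleic acid against 84.6, 67.2 and 73.4 TPM untreated (log2 fold change -2.19 ± 0.23, limma adjusted p = 4.35e-08). For both, the groups were far from overlapping. Gabra4 fell to 0.567 ± 0.1002 TPM with oleic acid, against 4.897 ± 0.416 TPM untreated (log2 -1.91), Gria4 to 2.18 ± 0.778 TPM with oleic acid against 8.44 ± 0.382 TPM untreated (-1.60), Gabrb2 to 0.227 ± 0.0929 TPM with oleic acid against 2.08 ± 0.367 TPM untreated (-1.32) and Gabrb1 to 2.6 ± 0.894 TPM with oleic acid against 6.94 ± 0.7504 TPM untreated (-1.17). Gria1 fell less, to 4.95 ± 0.177 TPM with oleic acid against 8.51 ± 0.884 TPM untreated (-0.67), and made 20.7 ± 4.03% of the summed Gria TPM with oleic acid and 7.698 ± 0.971% untreated. Grm8 (-0.80), Grik2 (-0.76), Grm3 (-0.56), Grik4 (-0.42) and Gabbr1 (-0.36) were also lower. Grm3 is counted among the lower genes, but it passed the filter only through wild-type libraries untreated or with neuronal medium. Its value is a description. Grik5 was higher, at 55.6 ± 5.504 with oleic acid and 42.2 ± 1.32 TPM untreated (log2 0.39). Grin2d was called higher too (0.53), at low levels that overlap, with 0.6, 1.3 and 1.91 TPM with oleic acid against 0.61, 0.64 and 0.35 TPM untreated. In all 2 receptor genes were higher and 13 lower of 18, where 59.8% of the 16161 genes tested passed (31.2% higher and 28.6% lower), and the medians were -0.72 over the receptor genes and 0.00 over all genes tested.

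Palmitic acid, a saturated fatty acid, was also followed by lower receptor RNA in wild-type astrocytes. Gria2 stood at 2.71, 2.27 and 1.29 TPM with palmitic acid against 21.1, 16.3 and 20.1 TPM untreated, with no overlap (log2 fold change -2.73 ± 0.17, limma adjusted p = 1.04e-11). Gria3 fell to 19.5 ± 2.62 TPM with palmitic acid, against 75.1 ± 8.803 TPM untreated (log2 -1.89), Gabra4 to 0.513 ± 0.1501 TPM with palmitic acid against 4.897 ± 0.416 TPM untreated (-1.96), Gabrb1 to 1.14 ± 0.269 TPM with palmitic acid against 6.94 ± 0.7504 TPM untreated (-1.89), Gria4 to 1.82 ± 0.309 TPM with palmitic acid against 8.44 ± 0.382 TPM untreated (-1.75) and Gria1 to 3.04 ± 0.612 TPM with palmitic acid against 8.51 ± 0.884 TPM untreated (-1.24). Grm3, Grm8, Gabrb2, Grik2, Grik4 and Grin3a were lower as well (log2 -0.56 to -0.89). The Grm3 value is again a description, for the reason given with oleic acid, although it is counted among the lower genes. Grik5, higher with oleic acid, was lower here (-0.28), a call lost with median-ratio scaling. Of 18 receptor genes 0 were higher and 14 lower, where 59.8% of the 16161 genes tested passed (26.8% higher and 33.1% lower), and the medians were -0.78 over the receptor genes and -0.08 over all genes tested. Astrocyte markers summed to 1346 to 1377 TPM with oleic acid (1 higher and 7 lower of 9 tested), 736.6 to 911.5 TPM with palmitic acid (0 and 9) and 2269 to 2535 TPM untreated. Microglia markers summed to 685.9 to 783.2 TPM with oleic acid, 755.5 to 869.8 TPM with palmitic acid and 346.3 to 392.6 TPM untreated. Oligodendrocyte precursor markers summed to 159.2 to 169.8 TPM with oleic acid (4 lower of 4 tested), 102.4 to 151.5 TPM with palmitic acid (2 lower) and 382.95 to 397.1 TPM untreated. Neuron markers summed to 309.4 to 324.9 TPM with oleic acid, 464.8 to 473.1 TPM with palmitic acid and 428.7 to 469.2 TPM untreated. The part of any of these sets in the receptor changes was not tested.

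**Figure D2:**
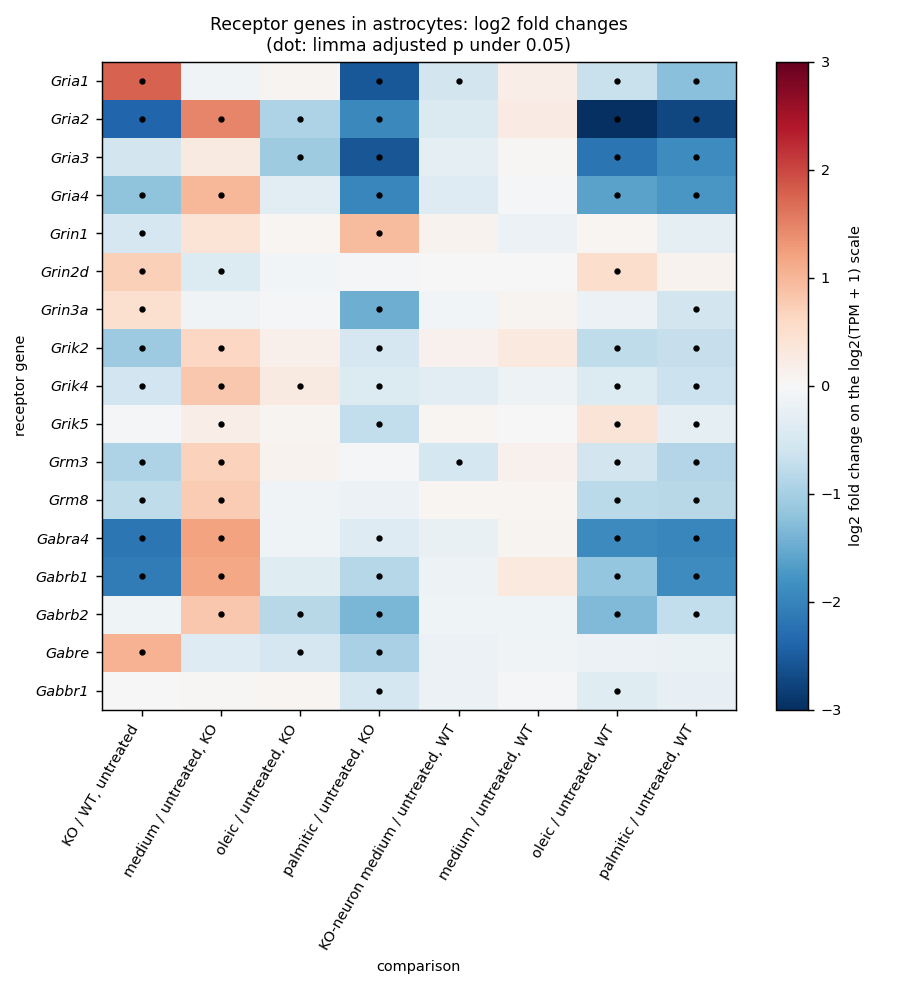
Log2 fold changes (log2(TPM + 1) scale, colour) of 17 of the 18 tested receptor genes (rows) in 8 astrocyte comparisons (columns), with a dot where limma's adjusted p was under 0.05. Gria2 ranges from -2.98 with oleic acid in wild-type astrocytes to 1.46 with neuronal medium in knockout astrocytes.

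In knockout astrocytes, where Gria2 and Gabra4 were low without treatment, oleic acid was followed by fewer calls. Gria3 stood at 22.7, 25.4 and 23.3 TPM with oleic acid against 52.2, 48.9 and 51.2 TPM untreated (log2 fold change -1.06 ± 0.23, limma adjusted p = 0.000933). Gria2 stood at 1.08, 0.83 and 1.17 TPM with oleic acid against 3.08, 2.96 and 2.59 TPM untreated (log2 fold change -0.94 ± 0.17, limma adjusted p = 0.000246). Neither gene's groups overlapped. Gabrb2 (-0.84) and Gabre (-0.51) also fell and Grik4 rose (0.28), so that 1 gene was higher and 4 lower of 18, where 41.8% of the 16161 genes tested passed (21.7% higher and 20.1% lower). The medians were -0.06 over the receptor genes and -0.03 over all genes tested. Gria1, at 33.3 ± 3.05 TPM with oleic acid and 31.6 ± 1.24 TPM untreated, did not pass, and it made 55.1 ± 1.61% of the summed Gria TPM with oleic acid and 35.8 ± 0.507% untreated. Without oleic acid 2 or without untreated 1, 3 genes were called. Astrocyte markers summed to 580.9 to 649.8 TPM with oleic acid and 530 to 542.6 TPM untreated, and microglia markers to 911.8 to 1059 TPM with oleic acid and 291.8 to 321.7 TPM untreated. Oligodendrocyte precursor markers summed to 84.1 to 104.6 TPM with oleic acid and 81.46 to 83.65 TPM untreated, and neuron markers to 309.8 to 322.7 TPM with oleic acid and 294.3 to 307.04 TPM untreated. The part of these markers was not tested. The change with oleic acid differed between the genotypes for 13 receptor genes by limma's interaction test, 11 of them with the more positive change in the knockout, where 29.6% of the 16161 genes tested passed (13.8% higher and 15.8% lower). The largest of these were Gria2 (log2 difference 2.04), Gabra4 (1.79), Gria4 (1.29) and Gria3 (1.13). Gabra4, at 0.29, 0.29 and 0.34 TPM in untreated knockout libraries, had little room to fall on the log2(TPM + 1) scale. Grik2, Grm3 and Grm8, also among the 11, were at 0.46 TPM or less there. For these genes the more positive change was largely fixed in advance and is a description. Gria2 too had less room to fall in knockout than in wild type. Fitted on only the groups compared, 8 passed, and with median-ratio scaling 12 had the more positive and 0 the more negative change in the knockout.

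Palmitic acid on knockout astrocytes was followed by low levels of most receptor transcripts. Gria1 stood at 3.94, 5.04 and 4.78 TPM with palmitic acid against 32.99, 30.8 and 30.95 TPM untreated (log2 fold change -2.55 ± 0.11, limma adjusted p = 6.81e-15). Gria3 stood at 3.97, 12.3 and 9.06 TPM with palmitic acid against 52.2, 48.9 and 51.2 TPM untreated (log2 fold change -2.57 ± 0.23, limma adjusted p = 1.51e-09). Neither gene's groups overlapped. Gria2 was listed at 0 in 2 of the libraries with palmitic acid and at 0.05 TPM in the other, and Gabra4 and Grik2 were listed at 0 in all 3. Gria4 (-1.95), Grin3a (-1.47), Gabrb2 (-1.37), Gabre (-0.96), Gabrb1 (-0.86), Grik5 (-0.75) and Grik4 (-0.41) fell too. Grin1 was higher, at 1.45, 1.31 and 1.67 TPM with palmitic acid against 0.21, 0.12 and 0.57 TPM untreated (log2 fold change 0.94 ± 0.16, limma adjusted p = 1.65e-05), and it shares exon bases with an antisense gene, Grin1os.

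Of 18 receptor genes 1 was higher and 14 lower with palmitic acid in the knockout, where 75.3% of the 16161 genes tested passed (19.9% higher and 55.4% lower). The medians were -0.80 over the receptor genes and -0.47 over all genes tested. The receptor median was -2.18 at a pseudocount of 0.1, -1.42 with only the groups compared and -0.10 with no filter on low values. With median-ratio scaling the median of all genes was -0.08, 1 receptor gene was higher and 11 lower, and Gabbr1, at -0.52 without it, stood at 0.0259. Astrocyte markers summed to 61.83 to 80.62 TPM with palmitic acid and 530 to 542.6 TPM untreated (9 of 9 tested lower), and microglia markers to 27.19 to 36.22 TPM with palmitic acid and 291.8 to 321.7 TPM untreated (10 of 10 lower). Oligodendrocyte precursor markers summed to 5.7 to 5.9 TPM with palmitic acid and 81.46 to 83.65 TPM untreated (4 of 4 tested lower), and neuron markers to 89.81 to 91.24 TPM with palmitic acid and 294.3 to 307.04 TPM untreated (5 of 7 tested lower). The part of these markers in the receptor results was not tested. The change with palmitic acid differed between the genotypes for 12 receptor genes by limma's interaction test, 6 with the more positive change in the knockout and 6 with the more negative, where 57.6% of the 16161 genes tested passed (14.3% higher and 43.2% lower). With median-ratio scaling these were 7 and 4, and the median difference of all genes was 0.03 with it and -0.35 without. Gria1 (log2 difference -1.30) and Grin3a (-0.91) fell further in the knockout, and Gabra4 (1.58), listed at 0 with palmitic acid, and Grin1 (1.22) had the more positive change there. Gabra4, at 0.34 TPM or less in untreated knockout libraries, had little room to fall there, so that its sign was largely fixed in advance. The same held for Grm3 and Grm8. Gabre, at 1.08 TPM or less in untreated wild-type libraries, had little room to fall in wild type, so its negative difference is a description as well. For Gria2 (0.80) and Gabrb1 (1.04) the sign turned at a pseudocount of 0.1 (-1.51 and -0.47).

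**Figure D3:**
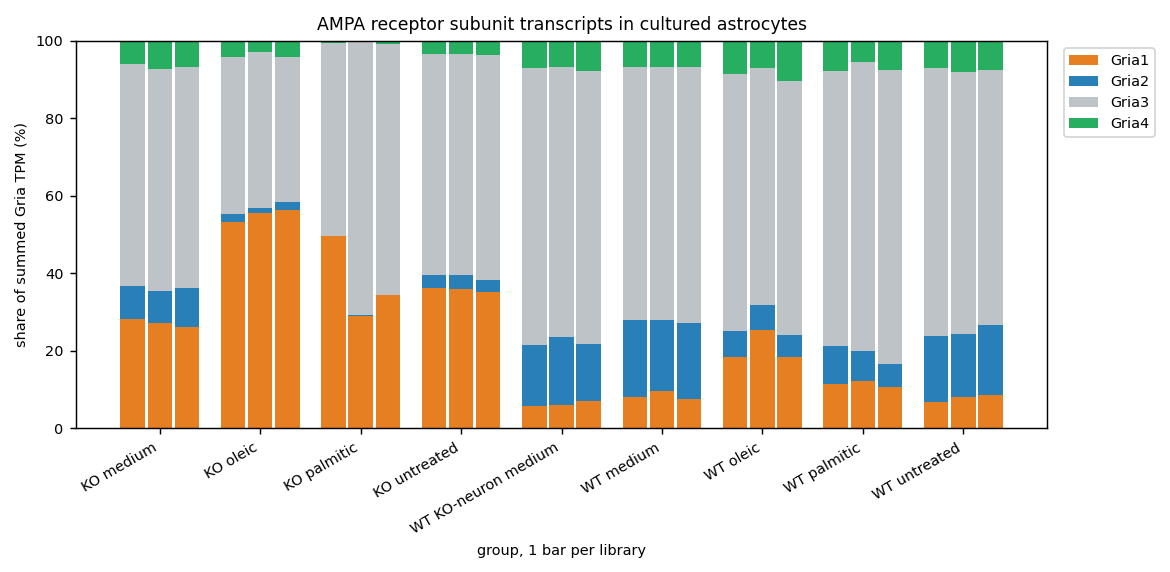
Shares of the 4 Gria genes in their summed TPM (percent, stacked bars from 0 to 100) in each astrocyte library by group, Apoe knockout (KO) groups left of wild-type (WT) groups. Gria1 makes 35.2 to 36.1% in untreated knockout and 6.63 to 8.53% in untreated wild-type libraries.

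The partners of these receptors were followed in lists of 32 auxiliary and scaffold proteins of glutamate receptors, 16 of GABA receptors, 10 genes of glutamate handling and 8 of GABA handling. In untreated knockout against wild-type astrocytes 5 of 25 glutamate receptor partners tested were higher and 12 lower, among them Shisa9, an AMPA receptor auxiliary protein, at 2.15 ± 0.465 in knockout and 15.7 ± 0.929 TPM in wild type (log2 fold change -2.42 ± 0.15, limma adjusted p = 1.66e-11). Of all genes tested there, 44.9% passed (23.9% higher and 21.1% lower). With neuronal medium on knockout astrocytes 13 were higher and 1 lower, against 31.2% of all genes in either direction, with Shisa9 at 14.8 ± 2.07 TPM. Of the GABA receptor partners 2 of 12 tested were higher and 4 lower in the untreated knockout, a share near that of all genes, and Kctd12, a GABA-B auxiliary subunit, stood at 55.2 ± 1.19 in knockout and 23.1 ± 0.527 TPM in wild type (log2 1.22). Of the glutamate handling genes 1 of 8 tested was higher and 5 lower in the untreated knockout. Glul, glutamine synthetase, stood at 81.8 ± 2.23 in knockout and 259 ± 14.1 TPM in wild type (log2 -1.65), and the transporter Slc1a3, which also counts among the astrocyte markers, at 63.9 ± 1.97 TPM in knockout and 216 ± 13.2 TPM in wild type (-1.74). Of the GABA handling genes 0 of 4 tested were higher and 3 lower. In wild-type astrocytes 4 glutamate receptor partners were higher and 11 lower with oleic acid, a share near the 59.8% of all genes called there, and 4 were higher and 13 lower with palmitic acid, where 59.8% of all genes were called.

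In brain none of the receptor genes passed the test in the 6 comparisons made, with all libraries and without a replicate block. In the first KA cohort the smallest p-values belonged to Grm4, Grm2 and Grm8, metabotropic receptors that curb transmitter release, and to Gabrd. Grm4 stood at 7.19, 10.2 and 7.96 TPM in KA against 6.5, 3.6 and 2.85 TPM in untreated brain (log2 fold change 0.88 ± 0.30, limma adjusted p = 0.279). Grm2 stood at 42.01, 41.1 and 25.6 TPM in KA against 21.3, 24.8 and 13.7 TPM in untreated brain (log2 fold change 0.83 ± 0.29, limma adjusted p = 0.282). Grm8 stood at 5.11, 5.35 and 6.23 TPM in KA against 3.96, 2.84 and 1.21 TPM in untreated brain (log2 fold change 0.91 ± 0.32, limma adjusted p = 0.291). For each of these the KA libraries lay above the untreated ones. Gabrd, the delta subunit of GABA-A receptors outside synapses, lay below them, at 19.01, 19.7 and 17.95 TPM in KA against 26.3, 24.3 and 26.5 TPM in untreated brain (log2 fold change -0.43 ± 0.16, limma adjusted p = 0.313). Of 36 receptor genes 0 were called by limma, where limma called 0.183% of the 15331 genes tested, 6 had an unadjusted p under 0.05, against 13.5% of all genes, and the groups of 9 did not overlap (6 higher and 3 lower), against 27.3% of all genes.

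Untreated 3 had the lowest value of the 6 libraries for 31 of these 36 genes. Gria2 stood at 140.3, 131 and 143 TPM in KA brain against 186, 198 and 33.9 TPM in untreated brain. Grin2b stood at 36.1, 32.7 and 37.5 TPM in KA brain against 51.2, 57.8 and 9.9 TPM in untreated brain. For both, the third untreated library lay below and the other untreated libraries above all KA libraries. Gria1 stood at 250.5, 233 and 243 TPM in KA against 340.2, 377 and 162 TPM in untreated brain, and Grin1 at 146, 151 and 149 TPM in KA against 193, 201 and 162 TPM in untreated brain. Without untreated 3, 4 receptor genes passed limma's test, all lower in KA brain, where 2.32% of all genes did (229 higher and 123 lower). They were Gria1 (log2 fold change -0.56 ± 0.07, limma adjusted p = 0.0407), Gria2 (-0.48 ± 0.07, limma adjusted p = 0.0436), Grin1 (-0.40 ± 0.06, limma adjusted p = 0.0436) and Grin2b (-0.60 ± 0.10, limma adjusted p = 0.0479). This fit leaves out the library that was lowest for most of these same genes, so its calls are given as a description and not as support. The medians were 0.40 over the receptor genes and 0.25 over all genes tested with all libraries, and -0.08 and 0.06 without untreated 3. Median-ratio scaling of all 6 libraries gave 0.13 and -0.02, and 0 calls. Gabra5, an alpha subunit abundant in hippocampus, stood at 97.8, 73.2 and 103 TPM in KA against 156, 176 and 102 TPM in untreated brain, and Grin2a at 42.5, 33.7 and 41.4 TPM in KA against 59.6, 67.8 and 18.2 TPM in untreated brain, and neither passed without untreated 3 (limma adjusted p = 0.0522 and 0.053).

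**Figure D4:**
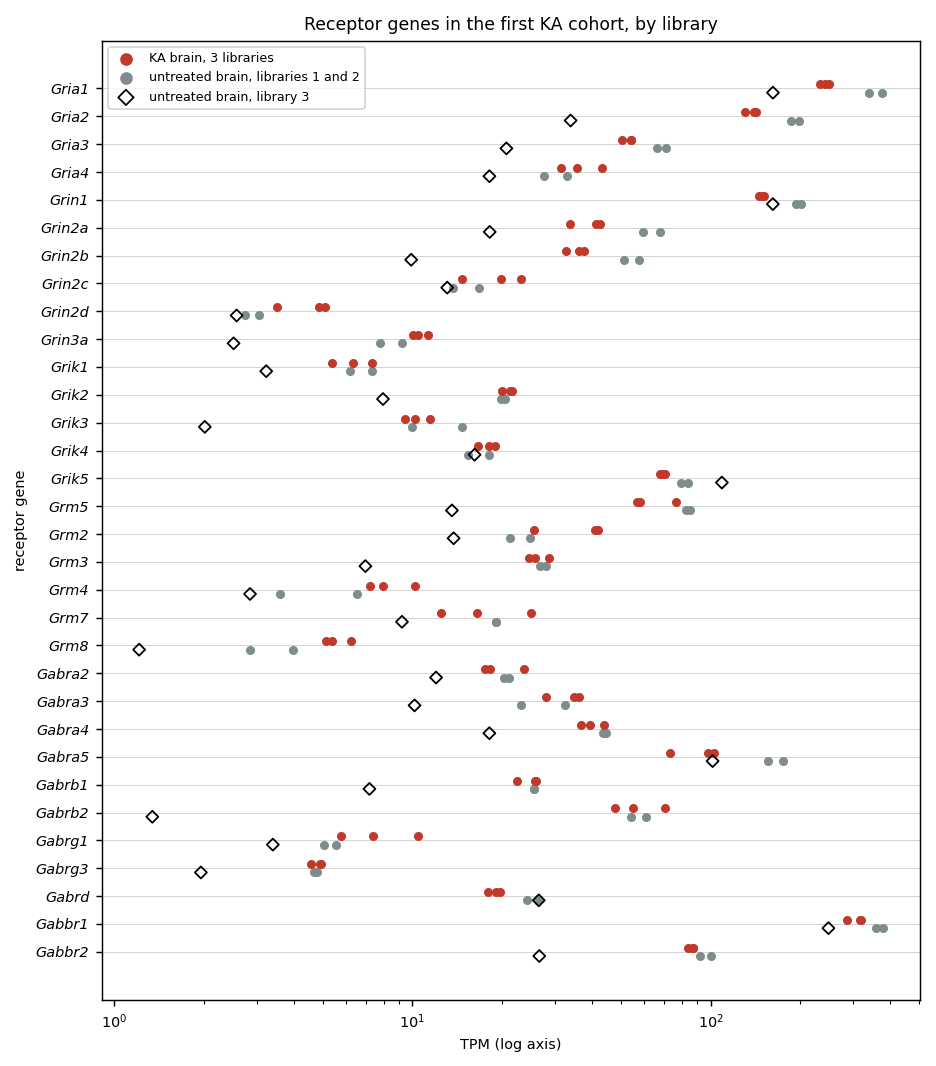
TPM (log axis) of 32 of the 36 receptor genes tested, in each library of the first KA cohort, KA libraries in red above the untreated libraries, of which the third is an open diamond. The diamond is the lowest of the 6 libraries for 27 of the 32 genes shown.

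In CNO brain Gabrd had the smallest p-value. It stood at 25.6, 14.5 and 14.2 TPM in CNO against 32.4, 33.4 and 28.1 TPM in untreated brain, with every CNO library below every untreated one (log2 fold change -0.81 ± 0.22, limma adjusted p = 0.1). With the replicate number as a block, which paired these libraries, Gabrd was lower (-0.81 ± 0.16, limma adjusted p = 0.0417), where 6.01% of all genes passed. Without CNO 1, the CNO library nearest to untreated brain for Gabrd, the value was -1.07 ± 0.12 (limma adjusted p = 0.00555). Gabra2, an alpha subunit of synaptic receptors, stood at 33.4, 59.8 and 15.3 TPM in CNO against 9.39, 14.3 and 14.7 TPM in untreated brain, with CNO 3 close to the untreated libraries (log2 fold change 1.26 ± 0.43, limma adjusted p = 0.195). Without CNO 3 the Gabra2 value was 1.75 ± 0.28 (limma adjusted p = 0.0485). Both fits leave out the CNO library nearest to untreated brain, so they are given as a description and not as support. Gabrb1 stood at 20.8, 27.5 and 23.7 TPM in CNO against 17.2, 15.5 and 20.6 TPM in untreated brain (log2 0.41, limma adjusted p = 0.205) and Grin1 at 184, 175 and 159 TPM in CNO against 214, 203 and 192 TPM in untreated brain (-0.23, limma adjusted p = 0.228). The AMPA genes overlapped, with Gria1 at 217, 254 and 225 TPM in CNO against 198, 259.8 and 259 TPM in untreated brain. Of 37 receptor genes 0 were called by limma, where limma called 3.7% of the 15453 genes tested, 4 had an unadjusted p under 0.05, against 16.1% of all genes, and the groups of 5 did not overlap (2 higher and 3 lower), against 21.6% of all genes. The medians were -0.03 over the receptor genes and 0.04 over all genes tested.

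Microglia markers summed to 1297 to 3318 TPM in KA and 482.97 to 597.3 TPM in untreated brain of the first cohort (0 of 10 called higher), and to 1178 to 1521 TPM in CNO and 434.2 to 511.3 TPM in its untreated brain (10 of 10). Astrocyte markers summed to 2032 to 3722 TPM in KA and 879.5 to 1577 TPM in untreated brain (0 of 10 called higher), and to 3857 to 4154 TPM in CNO and 1477 to 1785 TPM in its untreated brain (4 of 10). The 10 markers of neurons in general overlapped in both, at 4415 to 5050.1 TPM in KA and 3639.5 to 5218 TPM in untreated brain, and at 4856 to 5508 TPM in CNO and 5386 to 5947 TPM in its untreated brain. The 8 markers of excitatory neurons summed to 2863 to 3109.8 TPM in KA and 3665 to 4166 TPM in untreated brain of the first cohort, without overlap (0 called), and to 2666 to 3412 TPM in CNO and 2679 to 3792 TPM in its untreated brain, which overlap. The 10 interneuron markers overlapped in neither, at 1047 to 1204 TPM in KA and 1292 to 1663 TPM in untreated brain (0 called), and 1431 to 1871 TPM in CNO and 1083 to 1311 TPM in its untreated brain (1 called higher). The 8 markers of dentate granule cells, which are known to express Gabrd, summed to 190.3 to 229.7 TPM in CNO and 259.01 to 307.9 TPM in its untreated brain, with 2 called lower (Stxbp6, log2 -0.58, and Plk5, -1.05). In the first cohort, where Gabrd was also lower without overlap, they summed to 280.6 to 341.6 TPM in KA and 222.3 to 374.35 TPM in untreated brain, which overlap. The part of these markers in the receptor values was not tested. Among the receptors' partners, Cnih3, an AMPA auxiliary protein, was higher in CNO at 59.9 ± 4.07 against 40.3 ± 3.98 TPM in untreated brain (log2 0.56, limma adjusted p = 0.0277). It was the 1 call among 32 glutamate receptor partners, a share near the 3.7% of all genes called in CNO brain. The GABA transporter Slc6a13 was lower in CNO (-0.99, limma adjusted p = 0.0498).

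In the second cohort no receptor gene passed between KA and untreated brain. Grin3a, an NMDA subunit that lowers calcium entry, stood at 8.28, 9.66, 8.85 and 9.94 TPM in KA against 10.9, 13.3 and 13.1 TPM in untreated brain, with no overlap (log2 fold change -0.38 ± 0.11, edgeR adjusted p = 0.516, fitted on counts as all values of this cohort). Gria4 stood at 40.05, 39.5, 39.01 and 36.7 TPM in KA against 40.7, 52.8 and 50.8 TPM in untreated brain, again without overlap (log2 fold change -0.25 ± 0.09, edgeR adjusted p = 0.671). Gabre, an X-linked gene, had 11, 27, 0 and 12 counts in KA against 46, 83 and 60 counts in untreated libraries (log2 fold change -2.27 ± 1.23, edgeR adjusted p = 0.795). Grin2a overlapped, at 71.5, 57.5, 58.9 and 67.01 TPM in KA against 53.7, 55.3 and 65.1 TPM in untreated brain (log2 0.14). Gabrd stood at 28.9, 38.8, 52.3 and 35.6 TPM in KA against 34.6, 53.7 and 38.97 TPM in untreated brain, and these overlap. Of 41 receptor genes 0 were called by edgeR and by DESeq2, where edgeR called 0.0558% of the 23318 genes tested, 2 had an unadjusted p under 0.05, against 6.72% of all genes, and the groups of 4 did not overlap (1 higher and 3 lower), against 7.62% of all genes. The medians were -0.03 over the receptor genes and 0.00 over all genes tested. Microglia markers summed to 542.7 to 928.1 TPM in KA and 414.9 to 481.4 TPM in untreated brain, and neuron markers to 5911 to 6205 TPM in KA and 6286 to 6417 TPM in untreated brain, and their part was not tested.

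Apoe knockout brain with KA was set against KA brain and against untreated brain, and the 2 comparisons share the knockout libraries. Grin3a stood at 14.1, 11.9 and 10.3 TPM in Apoe knockout with KA against 8.28, 9.66, 8.85 and 9.94 TPM in KA brain, with all knockout libraries above (log2 fold change 0.40 ± 0.11, edgeR adjusted p = 0.297). Gabrb1 lay below, at 28.2, 22.6 and 26.2 TPM in Apoe knockout with KA against 30.9, 30.8, 30.8 and 30.2 TPM in KA brain (log2 fold change -0.26 ± 0.08, edgeR adjusted p = 0.355). Grin2a (log2 -0.28) and Grm5 (-0.17), a group I metabotropic receptor, overlapped. Of 41 receptor genes 0 were called by edgeR and by DESeq2, where edgeR called 0.112% of the 23318 genes tested, 7 had an unadjusted p under 0.05, against 9.33% of all genes, and the groups of 6 did not overlap (3 higher and 3 lower), against 9.85% of all genes. The medians were -0.04 over the receptor genes and -0.01 over all genes tested. Against untreated brain Gabrb1 stood at 28.2, 22.6 and 26.2 TPM in Apoe knockout with KA against 30.1, 29.1 and 31.7 TPM in untreated brain (log2 fold change -0.19 ± 0.09, edgeR adjusted p = 0.887). Gabrb2 (log2 -0.46) and Gabrr2 (-0.96) were not called either. Of 41 receptor genes 0 were called by edgeR and by DESeq2, where edgeR called 0.0943% of the 23318 genes tested, 3 had an unadjusted p under 0.05, against 5.55% of all genes, and the groups of 8 did not overlap (2 higher and 6 lower), against 11.7% of all genes. The medians were -0.07 over the receptor genes and 0.00 over all genes tested.

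No receptor gene passed in the libraries labelled A2aR knockdown. Gabra4 stood at 56.3, 66.3 and 49.96 TPM in the libraries labelled knockdown against 74.01, 81.3, 82.7 and 62.6 TPM in KA brain, which overlap (log2 fold change -0.31 ± 0.11, edgeR adjusted p = 0.441), and Grm7 (log2 -0.26) and Grin1 (0.19) overlapped as well. Interneuron markers summed to 1127 to 1322 TPM in the libraries labelled knockdown and 808.6 to 1085 TPM in KA brain, without overlap (0 of 10 called), and their part was not tested. Of 41 receptor genes 0 were called by edgeR and by DESeq2, where edgeR called 0.0386% of the 23318 genes tested, 6 had an unadjusted p under 0.05, against 9.25% of all genes, and the groups of 6 did not overlap (0 higher and 6 lower), against 9.05% of all genes. The medians were -0.01 over the receptor genes and -0.01 over all genes tested. Gria1 made 56.5 ± 3.69% of the summed Gria TPM in Apoe knockout with KA, 56.2 ± 0.792% in the libraries labelled knockdown, 54.8 ± 1.66% in KA brain and 52.6 ± 0.952% in untreated brain.

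**Figure D5:**
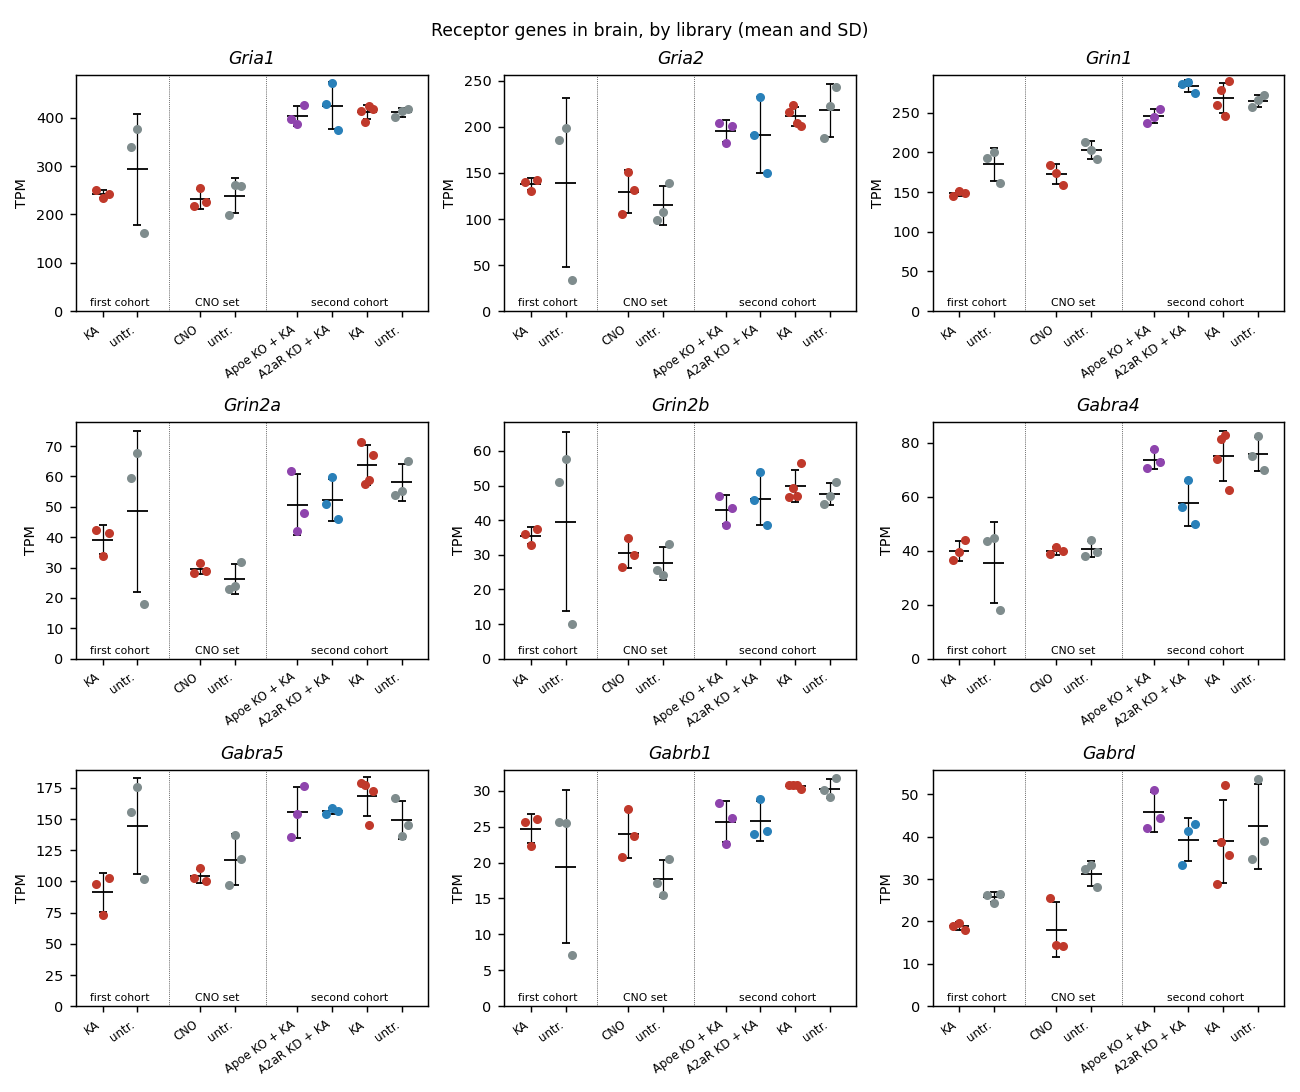
Levels (TPM, linear axes from 0) of 9 receptor genes in each brain library by table and group, with the mean and SD of each group, treated groups left of untreated ones. Gabrd lies at 14.2 to 25.6 TPM in CNO libraries and 28.1 to 33.4 TPM in the untreated libraries of that set.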

How the data were processed

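Trizol RNA (1 ug) of flash-frozen brain went into Illumina TruSeq libraries, per the labels' protocols, which carry the same text for astrocytes. The submitters' processing notes name HISAT2, StringTie, RSEM and mm10, with no roles. The authors deposited TPM per gene for all tables (a unit read from the values for the astrocyte, first KA and CNO tables) and, for the second KA cohort only, whole-number counts.

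TPM were analysed on log2(TPM + 1) with limma 3.58.1 (R 4.3.3, trended variance), keeping genes that reached 1 TPM in 3 libraries or more. For counts, edgeR 4.0.16 was used (quasi-likelihood test, TMM, default expression filter). Fits took whole tables with all groups, and p-values were Benjamini-Hochberg adjusted over all genes tested, with 0.05 as the threshold. A pseudocount of 1 understates changes of low genes. Levels are mean ± SD and fold changes ± SE.

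Members and gene lists were chosen with earlier results of these data known. Named genes are those past the threshold or, where fewer than 4 passed, the 4 with the smallest p, and genes given by level; some genes are counted in totals and tests but not reported here by name. Alternatives were median-ratio scaling (DESeq2 size factors for counts), a pseudocount of 0.1, no low-value filter, a replicate block, only the groups compared, DESeq2 1.42.0 and each library left out. Replicate numbers paired the CNO libraries (correlations of same-numbered deviations from 0.119 to 0.244, each best with its own number), although the labels name no shared animal or day. The procedures were tested on simulated data.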

Additional observations from a re-analysis of the deposited data

Results flagged for a closer look

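In the second KA cohort KA 4 was flagged for 4 of the 37 receptor genes checked for a lone library. The rule takes the gap to the nearest KA library relative to the range of the KA libraries. Among these KA 4 was higher for Grik3, at 20.7 TPM against 14.0 to 15.0 TPM, and lower for Gabbr2, at 112 TPM against 131.9 to 135.6 TPM. For Gabrb1 it was only slightly lower, at 30.2 TPM against 30.8 to 30.9 TPM. That value lay within the untreated range of 29.1 to 31.7 TPM and was flagged because the other KA libraries nearly coincide. Chance alone marks about 1 group in 20 in this way.

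The change with a treatment differed between Apoe knockout and wild-type astrocytes by limma's interaction test for genes that include those that follow, given as the knockout change minus the wild-type change on the log2(TPM + 1) scale. For medium from neurons the differences were 1.22 for Gria2, 1.06 for Gria4, 0.95 for Grik4, 0.58 for Grm3, 0.71 for Grm8, 1.12 for Gabra4 and 0.92 for Gabrb2. For oleic acid they were 0.75 for Gria1, 2.04 for Gria2, 1.13 for Gria3, 1.29 for Gria4, 0.91 for Grik2, 0.70 for Grik4, 0.67 for Grm3, 0.69 for Grm8, 1.79 for Gabra4 and 0.41 for Gabbr1, with -0.62 for Grin2d and -0.30 for Grik5. For palmitic acid they were -1.30 for Gria1, 0.80 for Gria2, 1.22 for Grin1, -0.91 for Grin3a, -0.47 for Grik5, 0.85 for Grm3, 0.66 for Grm8, 1.58 for Gabra4, 1.04 for Gabrb1, -0.63 for Gabrb2 and -0.76 for Gabre. Gabra4, Grik2, Grm3 and Grm8 were at 0.46 TPM or less in untreated knockout libraries, with little room to fall. Their positive differences with a fatty acid were largely fixed in advance. Gabre, at 1.08, 0.59 and 0.39 TPM in untreated wild-type libraries, had little room to fall in wild type, and its negative difference with palmitic acid is a description. Grm3 passed the filter only through wild-type libraries untreated or with neuronal medium.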

How the results depend on the processing

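Counts of receptor genes called stayed within 1.5 times of those reported, except as follows. The first KA cohort gave 0 to 4 when 1 library was left out (4 without untreated 3). CNO brain gave 1 with the replicate block and 0 to 1 with 1 library left out (1 without CNO 1 or CNO 3). Medium from Apoe knockout neurons against untreated gave 1 at a pseudocount of 0.1, 0 with only the groups compared and 0 to 2 with 1 library left out. Against medium from neurons it gave 1 with only the groups compared and 1 to 3 with 1 library left out. Oleic acid on wild-type astrocytes gave 24 with no filter on low values, and its genotype interaction 8 with only the groups compared. Oleic acid on knockout astrocytes gave 3 to 5 with 1 library left out (3 without oleic acid 2 or untreated 1).

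Of 1760 values of named genes under an alternative, 1679 kept their direction and side of the threshold, 74 lost the call, 4 gained it and 3 reversed: Gabbr1 with palmitic acid on knockout astrocytes under median-ratio scaling (0.0259), and the palmitic acid interactions of Gria2 (-1.51) and Gabrb1 (-0.47) at a pseudocount of 0.1. The cause of these shifts was not tested. The replicate block changed no other call in the CNO set, and in the other tables, whose numbers do not pair the libraries, it changed no count by over 1.5 times; no block could be fitted for the libraries labelled A2aR knockdown, which share 1 number with KA brain. The receptor medians moved with the pseudocount and the filter: with a pseudocount of 0.1 and with no filter they were -1.19 and -0.12 in untreated knockout astrocytes against wild type, 1.18 and 0.17 with neuronal medium on knockout, -1.08 and -0.17 with oleic acid on wild type, -1.19 and -0.22 with palmitic acid on wild type, and -2.18 and -0.10 with palmitic acid on knockout astrocytes. The depth behind TPM is unknown, and levels under 1 TPM are least certain.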
